A study of Drosophila melanogaster with 14 samples.

Results

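The pericentromeric heterochromatin of chromosome arm 2L of Drosophila melanogaster was taken as every window of the deposited replication timing table that starts at 22 Mb or beyond on 2L (Release 6 assembly, dm6). It runs to 23513712, the end of the assembled arm. It held 1513 of the 139491 windows in the table. Averaged into bins of 10 kb, it held 152 of the 13757 bins on the 7 assembled chromosomes. All 152 bins passed the filter on low signal, and 13745 bins passed in all. Membership was by position, so no measured value chose the bins.

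Heterochromatin beside a centromere is packed into condensed chromatin marked by methylation of lysine 9 on histone H3, which HP1 binds, and it is dense in transposable elements and tandem repeats. In many fly cells it copies its DNA late in S phase. It is not empty of genes, and the genes lt and cta on 2L are classic examples of genes that work inside heterochromatin. In the testis, germline stem cells (GSC) and somatic cyst stem cells (CySC) share one niche, whose ligand Unpaired (Upd) activates JAK-STAT signalling.

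The assay was Repli-seq, in which newly made DNA is labelled with the nucleotide analogue BrdU, nuclei are sorted by DNA content into fractions of S phase, and the labelled DNA of each fraction is pulled down and sequenced. By the labels, BrdU was given at 100 mM for 15 min in every library. The nuclei came from testis tumours driven by Upd. The GSC-like tumours, called germline tumours here, were y[1] w[1118] P{hs70FLP} with P{w[+mC]=GAL4::VP16-nanos.UTR}, a germline driver, over UAS-Upd. The CySC-like tumours, called somatic tumours here, were w[1118] with traffic Jam-GAL4, a driver of the cyst lineage, over UAS-Upd. Both carried one copy of the histone cassette UAS-FRT-H3-GFP-FRT-H3-mKO, were reared at 25 °C and were pooled from 100 to 200 pairs of testes per preparation, and GFP-positive nuclei were sorted. Thus every group overexpressed Upd and a tagged histone, none was wild type, and each library mixes many animals. The assay reads genomic DNA, so the cell types could not be checked against expressed markers.

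The fractions were E (early), EM (between early and middle), ML (between middle and late) and L (late). Both GSC-like replicates and the second CySC-like replicate covered all 4, and the first CySC-like replicate covered E and L, which makes 14 libraries. Libraries held 49.1 to 144 M reads, except those of GSC-like replicate 2, which held 0.516 to 7.05 M and were the only ones read with paired ends. In the median bin of the region, reads numbered from 30 (ML of GSC-like replicate 2) to 9777 (L of CySC-like replicate 1). Its counting error ran from 0.26 down to 0.015 on the log2 scale, and it was 0.066 and 0.12 in E and L of GSC-like replicate 2. These errors cover counting only, since amplified reads carry no molecular identifiers. In CySC-like replicate 2 the library labelled ML resembled E more than the library labelled EM did, with Spearman's rho over all bins of 0.800 and 0.278. In GSC-like the order was the opposite, with 0.038 and 0.451 in replicate 1 and -0.385 and 0.434 in replicate 2. The EM and ML labels of CySC-like replicate 2 may thus be exchanged, which was not tested. Its middle fractions are given by their labels, and they enter only the fraction levels, the shares of bins by highest fraction and the values of the last window.

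The sequence of the region is unlike that of the arm. On average 38.8% of a bin was soft-masked as repeat in the reference, against 16.7% on the rest of 2L, GC content was 39.3% against 42.0%, and exons covered 8.54% against 29.4%. Of the 273 annotated transposable elements in it, 79 were INE-1 and 30 were 1360, both short elements known to be abundant in fly heterochromatin. Runs of at least 2 neighbouring bins with 90% or more soft-masked sequence formed 3 blocks. The first spans 2L:22410001-22480000, and within it the sequence matched itself best at a shift of 1378 bp, at 38.6% of positions against a median of 26.2% over all shifts tried. HMS-Beagle and invader1 elements, both long terminal repeat retrotransposons, are annotated at its distal end, 5 fragments of each. The block at 2L:23100001-23120000 matched itself best at 257 bp, at 47.8% against 29.1%. The block at 2L:22890001-22910000 had no clear period. At the very end of the arm lies a simple repeat, inside the single bin that was called between the cell types. It fills 903 bp from 2L:23512810 to 23513712 with units of 7 bases, 75 of AAGAGAG and 50 of AACAGAG, and neighbouring units were equal at 98.8% of positions. One stretch of each repeat is shown, 5′ to 3′ on the plus strand of dm6. For the 1378 and 257 bp repeats it is the stretch of its length that best matched its next copy. Its identity is therefore far above that of the whole block. In the first pair capitals mark bases that differ from the next copy 1378 or 257 bp further on (there are none in the first stretch), and in the last one capitals mark AACAGAG units.
2L:22413236-22413385, period 1378 bp, 150 of 150 bases equal to the next copy: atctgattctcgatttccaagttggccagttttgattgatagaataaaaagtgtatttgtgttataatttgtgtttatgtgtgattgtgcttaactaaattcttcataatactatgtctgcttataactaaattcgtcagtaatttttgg
2L:23114310-23114566, period 257 bp, 256 of 257 bases equal to the next copy: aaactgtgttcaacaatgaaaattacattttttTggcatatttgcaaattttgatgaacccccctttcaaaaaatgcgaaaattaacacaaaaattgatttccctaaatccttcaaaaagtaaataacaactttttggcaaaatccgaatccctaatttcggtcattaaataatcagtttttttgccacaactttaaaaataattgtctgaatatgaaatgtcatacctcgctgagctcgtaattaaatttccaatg
2L:23513503-23513712, the last 210 bases of the arm: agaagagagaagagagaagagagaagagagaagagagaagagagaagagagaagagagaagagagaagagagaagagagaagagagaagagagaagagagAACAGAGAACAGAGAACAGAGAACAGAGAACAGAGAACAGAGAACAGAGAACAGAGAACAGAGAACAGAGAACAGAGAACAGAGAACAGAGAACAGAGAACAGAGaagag

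The first question was when the region replicates in each cell type. Timing is given as log2(E/L): within a replicate the signal in E, plus 0.1, was divided by the signal in L, plus 0.1, on a log2 scale, so that higher values are earlier. The mean over the 152 bins was -0.098 and 0.042 in GSC-like replicates 1 and 2, and -1.05 and -0.54 in CySC-like replicates 1 and 2. The region was thus about as strong in E as in L in the germline tumours and stronger in L in the somatic tumours, with no overlap of replicates. The means were -0.028 ± 0.099 and -0.79 ± 0.36 (SD, n = 2 each), a difference of 0.76 on the log2 scale. A two-sided exact permutation test gave p = 0.33, the lowest that 2 replicates against 2 allow, and adjusted p = 0.381 over 8 such tests. With libraries scaled by their median bin the values were -0.15 and -0.75, and -0.99 and -0.68, so that the replicates overlapped and the difference was 0.38. With libraries scaled on autosomal arm bins it was 0.45, and the replicates did not overlap. Without GSC-like replicate 2, the shallow one, the difference was 0.69. The design text speaks of biological replicates without saying whether they came from separate crosses, so the spread may be partly technical.

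The ratio has no fixed zero, so the region was also read against other sequence of the same replicate, which cancels the scaling of E against L. Relative to the rest of 2L it was lower by 0.11 and 0.28 in GSC-like and by 0.92 and 0.56 in CySC-like, a difference between cell types of 0.55. Relative to the pericentromeres of 2R, 3L, 3R and X as one group it was 0.45 and 0.81 in the germline tumours against -0.036 and 0.15 in the somatic tumours, a difference of 0.58. In the germline tumours the 2L region was therefore earlier than the other pericentromeres in both replicates, and in the somatic tumours it lay near them. Taken one by one, the difference between cell types was 0.47 against 2R, 0.94 against 3R and 0.72 against X, each without overlap of replicates. Against 3L it was 0.29, the replicates overlapped, and the exact permutation p was 0.67. The other exact tests again gave 0.33. Without the last bin of the arm the difference of the region mean was 0.78.

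**Figure D1:**
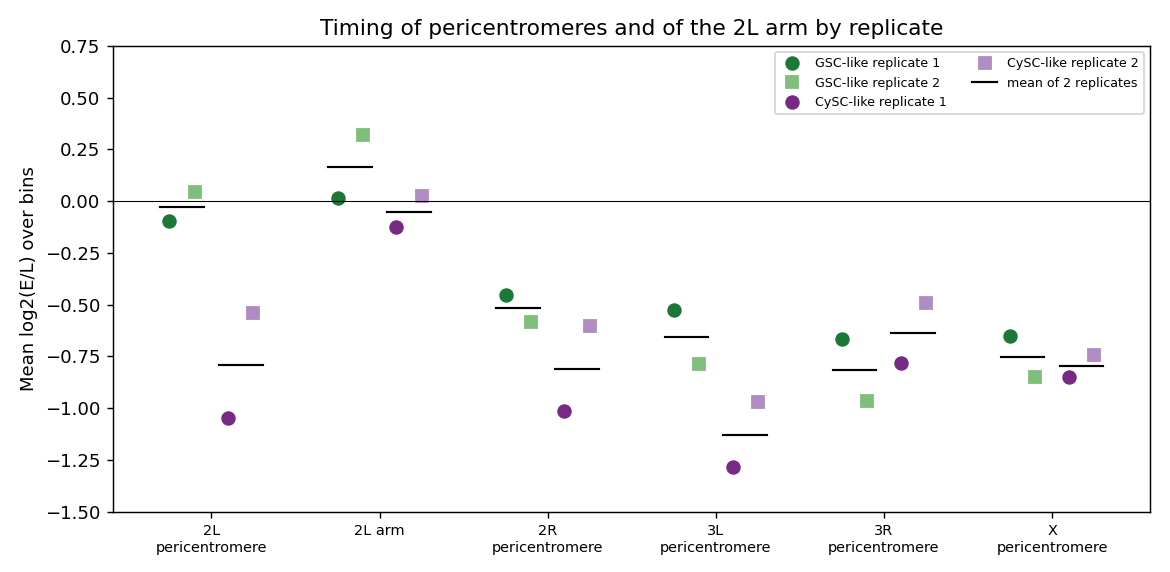
Mean log2(E/L) over 10 kb bins for each replicate (points) and the mean of 2 replicates (bars) in the 2L pericentromere, the rest of 2L, and the pericentromeres of 2R, 3L, 3R and X. In the 2L pericentromere the GSC-like replicates lie at -0.098 and 0.042 and the CySC-like replicates at -1.05 and -0.54.

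The separate libraries show the levels behind this ratio. In E of CySC-like replicate 1 the median bin of the region had 0.51 of the level of the median bin of the 2L arm, the lowest of the 14 libraries, and in L of that replicate it had 1.03. In CySC-like replicate 2 the levels from E through L were 0.84, 1.15, 0.63 and 1.34. Both somatic replicates thus had less of the region in E than in L. In GSC-like replicate 1 the levels in the same order were 0.87, 0.97, 1.09 and 1.04, so the region stayed near the arm in each fraction. In GSC-like replicate 2 they were 1.68, 1.51, 1.06 and 1.89. That replicate, which is also the shallowest, had more signal over the region than over the arm in all 4 fractions. Whether its read layout or depth had a part in this was not tested.

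**Figure D2:**
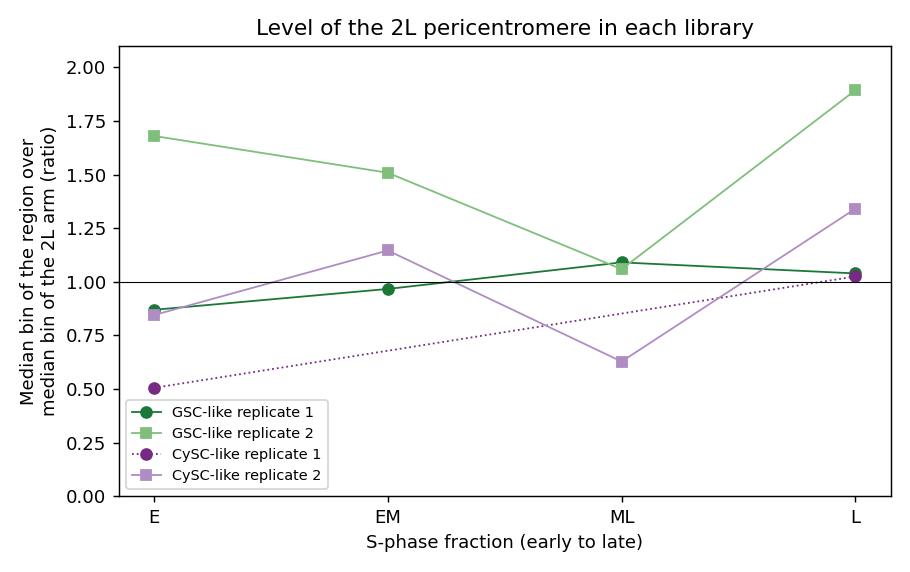
Level of the 2L pericentromere in each of the 14 libraries, as the median bin of the region over the median bin of the 2L arm, by S-phase fraction from early to late. CySC-like replicate 1 has E and L only (dotted line), at 0.51 and 1.03, and GSC-like replicate 2 lies above 1 in all 4 fractions.

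Each bin was also assigned to the fraction in which it was highest. In GSC-like replicate 1 the E fraction was highest in 27.0% of the 152 bins, EM in 30.9%, ML in 28.3% and L in 13.8%. In GSC-like replicate 2 the shares were 25.0%, 34.2%, 24.3% and 16.4%. The mean share in L was 15.1%, against 9.59% of the bins of the 2L arm and 12.7% of all bins. The replicates went opposite ways here. In replicate 1 the share in L was below that of the 2L arm, 16.6%, and of all bins, 16.5%. In replicate 2 it was above them, where they stood at 2.55% and 8.88%. The mean share in E was 26.0%, against 34.9% of the 2L arm. With libraries scaled by their median bin the share in L was 32.2% against 15.4% of the 2L arm, and with libraries scaled on autosomal arm bins it was 30.3% against 15.0%. In CySC-like replicate 2, 65.8% of bins were highest in L, against 23.9% of the bins of the 2L arm. It is 1 replicate, so the contrast between cell types has no replicate check.

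The second question was which bins carried a call. With limma (lmFit and eBayes with a variance trend) and Benjamini-Hochberg adjustment over all 13745 bins at 0.05, GSC-like had 12 of the 152 bins called toward E and 14 called toward L, 7.89% and 9.21%, where the background over all bins was 17.9% and 12.4%. The early calls were fewer than the background and the late calls near it. In CySC-like 0 bins were called higher in E, where the background was 0.989%, and 38 bins, 25%, were called higher in L, where the background was 10.2%. The late share in the somatic tumours was above the background and close to the 26.0% of the other pericentromeres. In GSC-like the other pericentromeres had 37.7% of bins called higher in L, against 9.21% here. In both cell types at once 7 bins, 4.61%, were called higher in L, near the background of 4.35%. At an unadjusted p under 0.05, 46 bins of GSC-like differed from 0, or 30.3% against 46.3% of all bins, and 69 of CySC-like, or 45.4% against 30.5%.

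The germline split depended on the scaling. With libraries scaled by their median bin, 1 bin was called higher in E and 30 in L in GSC-like, and with libraries scaled on autosomal arm bins 1 and 35. With values as deposited the split was 13 and 7, and after correction for GC content 17 and 7. In CySC-like every call of the region was a late call under each of these settings. The share of all bins called was not taken under these settings or with a replicate left out. These counts therefore do not separate a shift of the region from a shift of all bins. The counts also changed with single replicates, in a fit that pools the spread of both cell types. CySC-like had 0 calls when either of its replicates was left out and 61 when either GSC-like replicate was. GSC-like had 44 calls without GSC-like replicate 1 and 1 call without any other single replicate.

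Between the cell types 1 of 152 bins was called, where the background was 0.102%, and it is the last bin of the arm. At an unadjusted p under 0.05 there were 32, or 21.1% against 9.68% of all bins. The count of adjusted calls changed when GSC-like replicate 1 was left out. Both GSC-like replicates lay above both CySC-like replicates in 98 bins, or 64.5%, where the background was 25.7%. They lay below in 6 bins, or 3.95%, where the background was 15.2%. The share above was 27.4% on the rest of 2L and 31.5% in the other pericentromeres. With libraries scaled by their median bin it was 31.6% of the region against 13.1% of all bins, and with the 2L arm mean of each replicate taken off it was 47.4% against 18.7%. The bins with germline above somatic were spread over the region, with 33 of 50 bins in the distal 500 kb, 34 of 50 in the next 500 kb, and 31 of 52 in the proximal rest.

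Along the region timing rose and fell in broad waves that both cell types shared. In 16 steps of 100 kb the germline replicates lay above the somatic ones in 12, overlapped in 3 and lay below in 1, the short step at the end. Across the 152 bins the profiles had a Pearson's r of 0.70 between GSC-like replicates, 0.66 between CySC-like replicates and 0.79 between replicate 2 of each. Between replicate 1 of each it was 0.19. Neighbouring bins share chromatin and library, so these correlations describe the profiles only.

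The distal 100 kb crossed from late to early in both GSC-like replicates and in CySC-like replicate 2. In CySC-like replicate 1 all of its bins lay below 0. The first bins were late in all 4 replicates. The mean of this step was 0.12 and 0.17 in the germline tumours against -1.27 and -0.061 in the somatic tumours. The step from 22100001 to 22200000 was the earliest of the region in both cell types. Its mean was 0.43 and 2.09 in the germline tumours against 0.18 and 0.48 in the somatic tumours, so that the germline replicates differed widely from each other and the cell types did not separate. This early domain has the most exon sequence of the region, 34.7%. Of the 12 bins called early in GSC-like, 10 lay in the distal 500 kb. The earliest of them in GSC-like, 2L:22190001-22200000, had 1.39 and 2.11 there and -0.97 and 0.30 in CySC-like, and it lies in Ir40a.

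The step from 22200001 was still early in the germline tumours, with 0.28 and 0.83, and stood at -0.50 and 0.13 in the somatic ones. Over the next 2 steps timing fell in both cell types. The step from 22300001 had -0.23 and -0.63 in the germline tumours against -1.54 and -1.22 in the somatic tumours. The step from 22400001, which holds the 1378 bp repeat block and no exon, had -0.20 and -0.99 in the germline tumours against -1.44 and -1.38 in the somatic tumours. In the 7 bins of the block the means were -0.14 and -0.96 in the germline tumours against -1.46 and -1.39 in the somatic tumours, with germline above somatic in 7 of 7. The block drew 3.44 to 4.09 times the signal of an arm bin, as a mean over the E and L libraries, and 1.39 to 1.68 times without GSC-like replicate 2. Of its sequence 98.1% to 99.9% per bin was soft-masked, and how reads that match several copies were counted is not given in the sources used here.

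A short early island followed from 22500001 to 22600000, with 0.063 and 0.80 in the germline tumours against -0.26 and 0.24 in the somatic tumours, and the replicates overlapped. It was the second point at which the somatic tumours came near 0. Beyond it the somatic profile was again about as late as in the steps from 22300001 and 22400001. The steps from 22600001 and 22700001 had -1.60 and -1.61 in CySC-like replicate 1 and -1.18 and -1.23 in CySC-like replicate 2. In GSC-like they had -0.21 and -0.44 in replicate 1 and -0.75 and -0.81 in replicate 2. The latest bin of the region in CySC-like was 2L:22690001-22700000, with -2.34 and -2.18, and with -0.93 and -1.36 in GSC-like. Its call in CySC-like had a limma adjusted p of 0.003.

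From 22800001 to 23300000 the germline tumours rose again and the somatic replicates parted. GSC-like steps lay between 0.023 and 0.27 in replicate 1 and between -0.062 and 0.97 in replicate 2. CySC-like replicate 1 stayed between -1.19 and -1.05, and CySC-like replicate 2 lay between -0.84 and -0.068. The step from 23100001 had the largest gap between cell types, 1.16, with 0.17 and 0.97 in the germline tumours against -1.08 and -0.11 in the somatic tumours. It contains the 257 bp repeat block, whose 2 bins had -0.022 and 0.70 in the germline tumours against -1.52 and -0.30 in the somatic tumours at 2.39 to 2.52 times the signal of an arm bin. Without GSC-like replicate 2 that level was 1.16 to 1.43.

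Towards the centromere the gap closed. The step from 23300001 had -0.55 and -0.47 in the germline tumours against -1.19 and -1.0 in the somatic tumours. The step from 23400001 had -1.11 and -1.22 in the germline tumours against -0.96 and -1.19 in the somatic tumours, a difference of -0.092 with overlapping replicates. All 4 values were thus late here, and 8 of the 14 late calls of GSC-like fell in this step. The part beyond 23 Mb minus the distal 500 kb was -0.34 and -0.39 in the germline tumours against -0.17 and -0.24 in the somatic tumours. That difference of -0.16 had an exact permutation p of 0.33 and became 0.11 when medians over bins were used, so its direction is not settled. The gap between cell types was also taken by repeat content. In the 76 bins at or below the median soft-masked share of the region, 30.9%, the means were -0.0072 and 0.23 in the germline tumours against -1.03 and -0.44 in the somatic tumours, a difference of 0.85. In the 76 bins above it they were -0.19 and -0.15 against -1.07 and -0.64, a difference of 0.68.

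**Figure D3:**
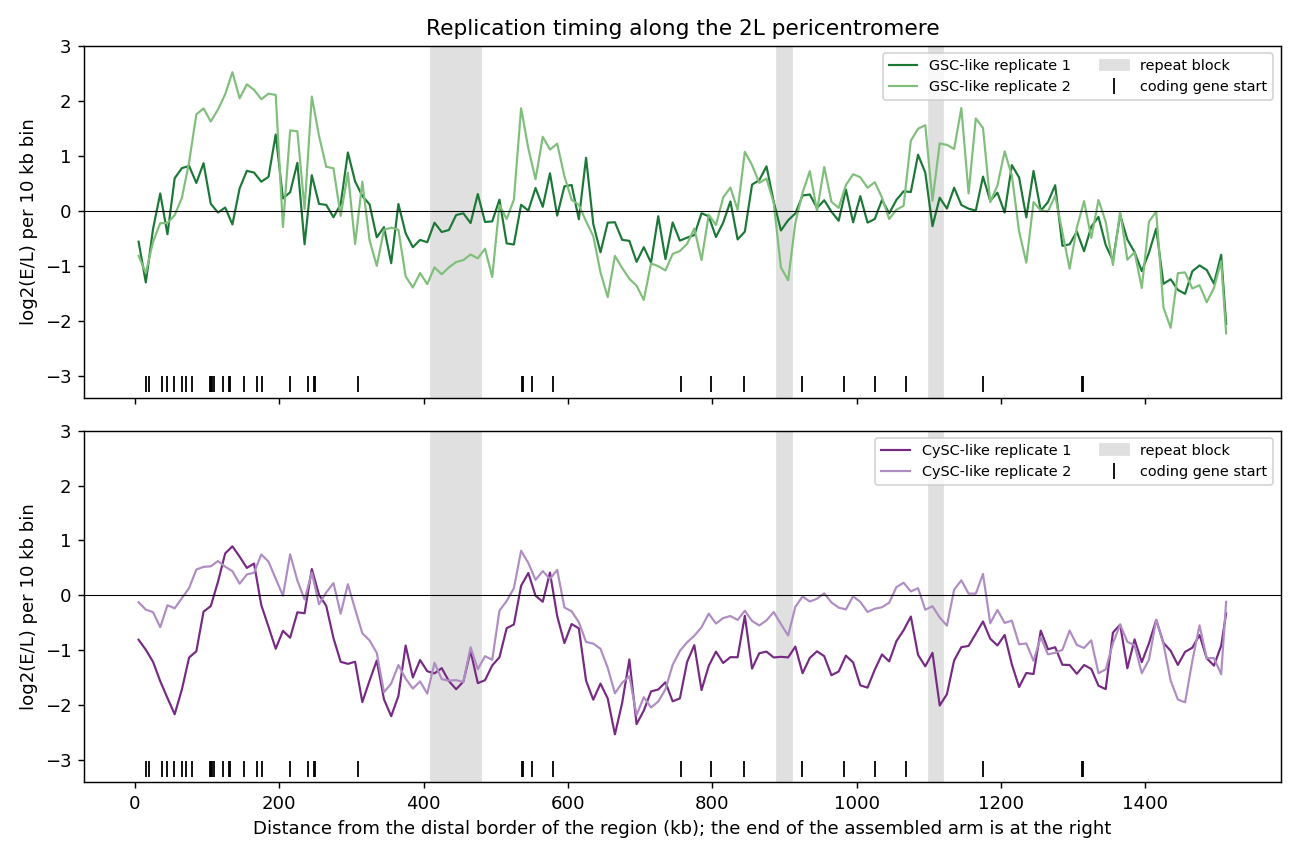
Timing, log2(E/L), of each 10 kb bin against distance from the distal border of the region in kb, GSC-like replicates above and CySC-like replicates below. Grey bands mark the 3 repeat blocks and ticks mark coding gene starts. Both cell types show an early peak in the distal part and a second one between the first and the second band. In CySC-like replicate 2 the second peak holds the highest bin. Most bins towards the right end lie below 0 in all 4 replicates.

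The region holds 37 protein coding genes, or 24.4 per Mb against 119 per Mb on the rest of 2L, and 18 noncoding RNA genes, 7 pseudogenes and 1 snoRNA gene. Of the coding genes 23 start in the distal 500 kb, 9 in the next 500 kb and 5 beyond. A gene was given the value of the bin with its start, and the 37 genes share 28 bins. Bins with a gene start were earlier than the other bins of the region in each replicate. They had 0.16 and 0.79 in the germline tumours, where the other bins had -0.16 and -0.13. In the somatic tumours they had -0.64 and 0.058, where the other bins had -1.14 and -0.67. Germline replicates lay above somatic ones for 19 of 37 genes, or 51.4%, and below for 2, or 5.41%. The background of all bins was 25.7% and 15.2%, and the shares of the region's own bins were 64.5% and 3.95%. The share above was thus lower among the genes than among the bins around them. No gene was called between cell types (lowest limma adjusted p 0.46). Genes in the same bin share 1 value, so these counts hold fewer independent values than genes.

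**Figure D4:**
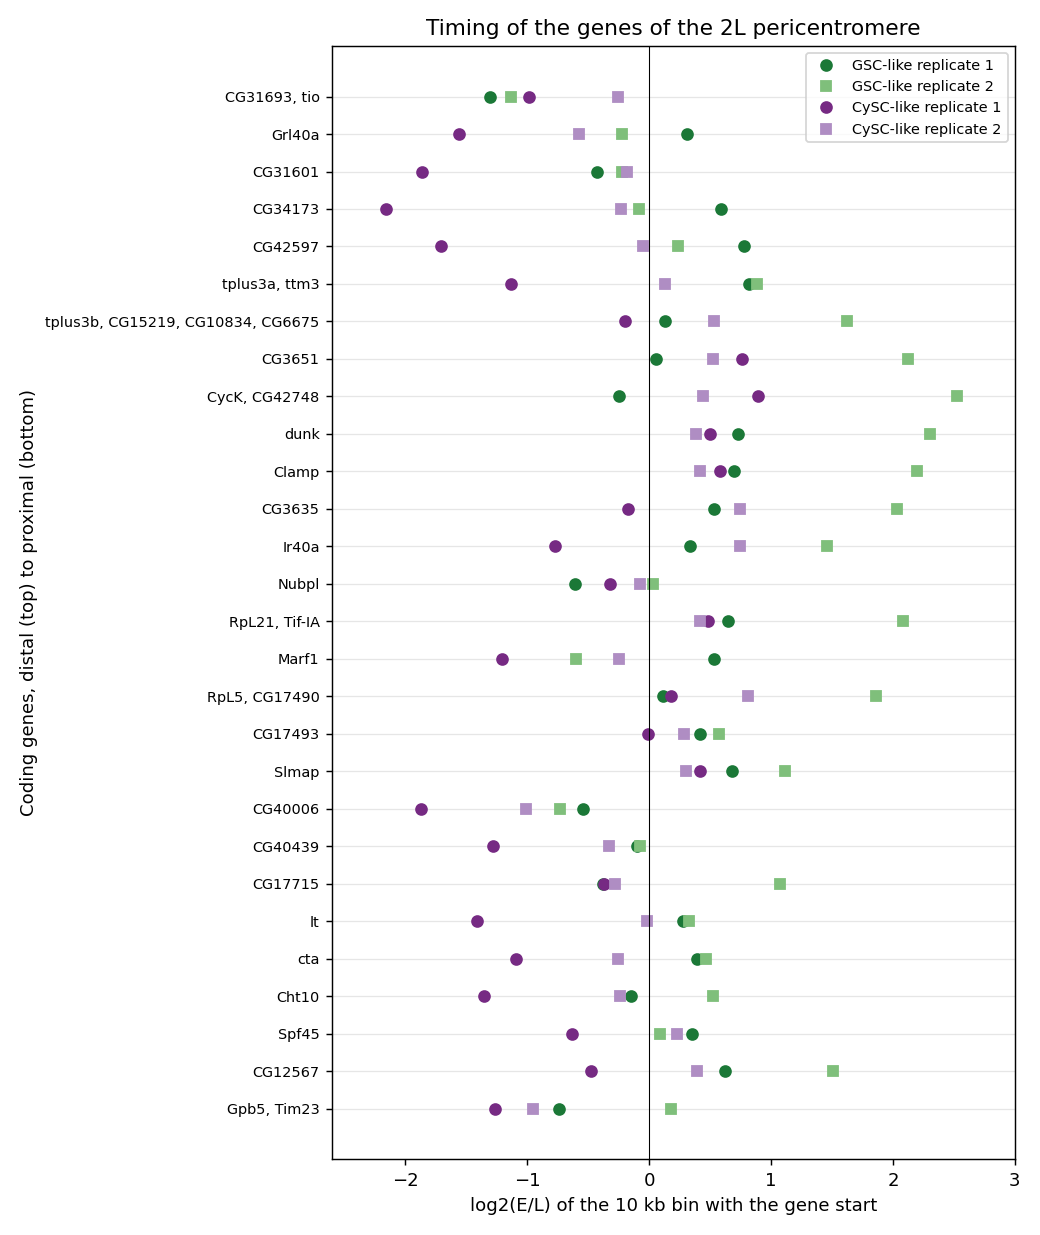
log2(E/L) in the 28 bins that hold a coding gene start, from distal (top) to proximal (bottom), with 1 point per replicate. Libraries are scaled to an equal mean bin, on which the position of 0 depends. Genes of the distal early domain reach 2.52 in GSC-like replicate 2, and lt and cta have both GSC-like points above 0 and both CySC-like points below 0.

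The genes best known from 2L heterochromatin come first. The gene lt (light, FBgn0002566, 2L:22924795-22943135, plus strand) encodes a subunit of the HOPS complex, which delivers cargo to lysosomes and pigment granules. Its start bin had 0.28 and 0.33 in the germline tumours against -1.42 and -0.018 in the somatic tumours, a difference of 1.02 ± 0.62 (SE). The gene cta (concertina, FBgn0000384, 2L:22981816-22992951, plus strand) encodes a G protein alpha subunit needed for cell shape change at gastrulation. It had 0.39 and 0.47 in the germline tumours against -1.10 and -0.26 in the somatic tumours, a difference of 1.10 ± 0.62 (SE). Both genes were on the early side of 0 in both germline replicates and on the late side in both somatic ones, with limma adjusted p of 0.61 and 0.57. These signs hold for libraries scaled to an equal mean bin. Scaling by the median bin moved the region mean of GSC-like replicate 2 from 0.042 to -0.75. That is a larger step than the height of lt or cta above 0 in this replicate. Without CySC-like replicate 1 the differences fell to 0.32 for lt and 0.68 for cta, and without CySC-like replicate 2 they were 1.72 and 1.52. With libraries scaled to an equal mean bin, 24 bins of the region showed these opposite signs, or 15.8%, against 3.94% of all bins. The reverse was seen in 0 bins of the region, against 3.33% of all bins. Cht10 (FBgn0250907, 2L:22999574-23025915, minus strand), a chitinase gene listed earlier as Cht3, had -0.15 and 0.52 in the germline tumours against -1.35 and -0.24 in the somatic tumours.

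The bins of RpL5 and of RpL21 with Tif-IA had values above 0 in all 4 replicates. RpL5 (FBgn0064225, 2L:22532279-22536884, minus strand), for a protein of the large ribosomal subunit, shares its bin with CG17490 in the early island. It had 0.11 and 1.87 in the germline tumours against 0.18 and 0.81 in the somatic tumours, overlapping between cell types, and was called in neither (limma adjusted p 0.078 in GSC-like and 0.42 in CySC-like). RpL21, for another protein of the large subunit, and Tif-IA, for an initiation factor of RNA polymerase I, share a bin of the distal early domain. That bin had 0.65 and 2.08 in the germline tumours against 0.48 and 0.42 in the somatic tumours, with a limma adjusted p of 0.020 for E over L in GSC-like. CG17493 (2L:22550064-22556295), also in the island, had 0.42 and 0.57 in the germline tumours against -0.0055 and 0.28 in the somatic tumours. Its difference of 0.36 became -0.026 with libraries scaled by their median bin. Slmap, next to it, had 0.68 and 1.11 in the germline tumours against 0.42 and 0.30 in the somatic tumours.

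The distal early domain held the other genes called early in GSC-like. Clamp, for a zinc finger protein that binds GA repeats and serves dosage compensation of the X, had 0.70 and 2.20 in the germline tumours against 0.58 and 0.41 in the somatic tumours (limma adjusted p 0.017 in GSC-like). The dunk gene, which acts in cellularization of the embryo, had 0.73 and 2.30 in the germline tumours against 0.50 and 0.38 in the somatic tumours. CG3635 had 0.53 and 2.03 in the germline tumours against -0.18 and 0.75 in the somatic tumours. Together with RpL21 and Tif-IA these genes made 5 early calls in GSC-like, or 13.5% of the 37 genes, below the background of 17.9%. Most of these calls depend on the scaling. With libraries scaled by their median bin or on autosomal arm bins, 1 bin of the whole region was called early in GSC-like. In CySC-like 0 genes were called early, where the background was 0.989%. CycK, for a cyclin partner of transcription kinases, shares its start bin with CG42748 (35001 bp, one of the longest genes). It had -0.25 and 2.52 in the germline tumours against 0.89 and 0.44 in the somatic tumours, the earliest gene bin in CySC-like and the one on which the germline replicates were farthest apart. CG3651 beside it had 0.059 and 2.12 in the germline tumours against 0.76 and 0.52 in the somatic tumours. Ir40a, for an ionotropic receptor of humidity sensing, had 0.34 and 1.46 in the germline tumours against -0.77 and 0.75 in the somatic tumours.

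The genes named as latest in a cell type and the longest genes follow. CG31693 and tio, the latter for a zinc finger factor of the teashirt family, share a bin with -1.30 and -1.13 in the germline tumours against -0.99 and -0.26 in the somatic tumours. They were the 2 genes called late in GSC-like (limma adjusted p 0.038) and the 2 genes with germline below somatic, and 2 of 37 is below the background of 12.4% for late calls. CG40006 (FBgn0058006, 2L:22622417-22756349, minus strand), the longest gene at 133933 bp, had -0.54 and -0.73 in the germline tumours against -1.87 and -1.01 in the somatic tumours. It was the only gene called late in CySC-like (limma adjusted p 0.030), or 2.70% of the genes where the background was 10.2%. Over the 14 bins of its body the means were -0.41 and -1.0 in the germline tumours against -1.85 and -1.49 in the somatic tumours, so that start and body were both late. Marf1 (FBgn0039972, 2L:22308755-22368796, plus strand), a regulator of oocyte meiosis 60042 bp long, had 0.53 and -0.60 in the germline tumours against -1.21 and -0.25 in the somatic tumours. Its germline replicates disagreed in sign. Gpb5, for a glycoprotein hormone subunit, and Tim23, for a mitochondrial protein translocase, are the most proximal coding genes and share a bin with -0.74 and 0.18 in the germline tumours against -1.27 and -0.96 in the somatic tumours. Nubpl, whose start bin adjoins that of RpL21 and Tif-IA, had -0.61 and 0.028 in the germline tumours against -0.32 and -0.073 in the somatic tumours. Over the bins of its body it had 0.019 and 1.05 against 0.078 and 0.17, all above 0.

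Among genes whose replicates separated, small genes near the distal border had the widest gaps between cell types. CG34173 had 0.59 and -0.080 in the germline tumours against -2.16 and -0.23 in the somatic tumours, a difference of 1.45. CG42597 had 0.78 and 0.23 in the germline tumours against -1.71 and -0.049 in the somatic tumours, a difference of 1.39. The bin of tplus3a and ttm3 had 0.82 and 0.89 in the germline tumours against -1.13 and 0.13 in the somatic tumours, a difference of 1.35. In each of them CySC-like replicate 1 was more than 1 unit of log2 below CySC-like replicate 2. Grl40a showed a gap of 1.11, with 0.31 and -0.23 in the germline tumours against -1.56 and -0.58 in the somatic tumours, and CG31601 one of 0.70, with overlapping replicates.

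Heterochromatic genes of other arms were set beside these, with 14 of 14 listed genes found. Their median difference between cell types was 0.53, against 0.72 for the 37 coding genes of the region and 0.24 for all bins. Replicates separated with germline above for 3 of them, AGO3, Snap25 and rl, or 21.4%, below the background of 25.7%. AGO3, for a Piwi-family protein of the germline piRNA pathway, had 0.30 and 0.74 in the germline tumours against -1.14 and -0.83 in the somatic tumours. No test of the lists was made.

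The last bin of the arm, 2L:23510001-23513712, went the other way from most of the region. It had -2.06 and -2.23 in GSC-like, the latest of its bins there, and -0.33 and -0.12 in CySC-like. The difference of -1.92 had a limma adjusted p of 2.1e-13. The same difference was -2.31 (adjusted p 0.99) with libraries scaled by their median bin and -2.24 (adjusted p 0.68) with libraries scaled on autosomal arm bins. It was -1.92 without the variance trend (adjusted p 0.36) and -1.92 with the replicate block (adjusted p 0.57). The size therefore held under these settings and the call did not. The bin has 599 times the signal of an arm bin as a mean over the E and L libraries, with 50.7 to 3613 times in single ones. Without GSC-like replicate 2 it has 113 times.

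The window with the 7-base repeat itself, 2L:23512001-23513712, shows the pattern in each library. In GSC-like replicate 1 its level in E, EM, ML and L was 812, 908, 2521 and 3116 RPKM (reads normalised to window length and library size). In GSC-like replicate 2 it was 4609, 6670, 14636 and 18768 RPKM. Both germline replicates thus rose from E through EM and ML to L. In CySC-like replicate 1 it was 1628 in E and 1863 in L, nearly level. In CySC-like replicate 2 it was 1308 in E, 3472 in the library labelled EM, 655 in the library labelled ML and 1378 in L. The somatic replicates had similar levels in E and L. In the one with middle fractions the highest level was in the library labelled EM, and if its EM and ML labels are exchanged that level belongs to ML.

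**Figure D5:**
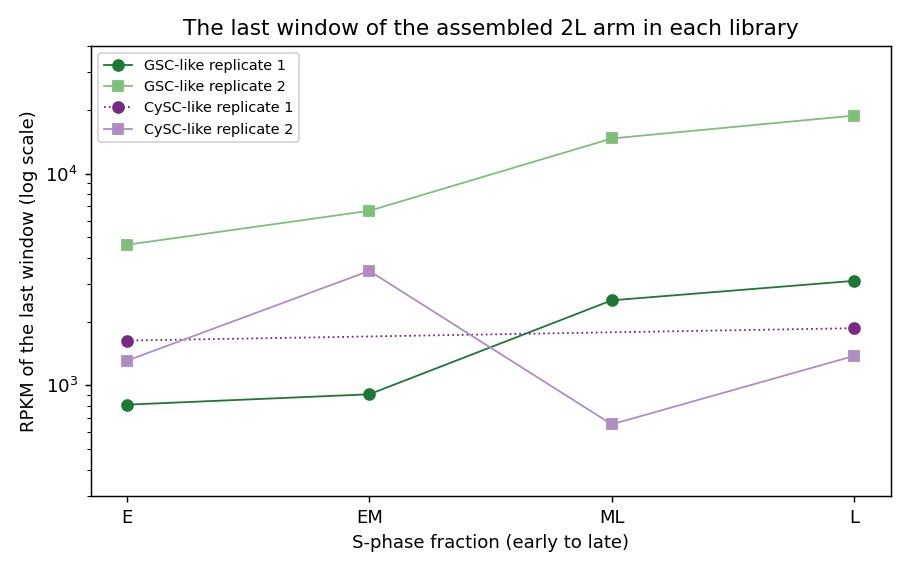
RPKM of the last window of the assembled 2L arm in each of the 14 libraries, on a log axis, by S-phase fraction from early to late. In GSC-like replicates 1 and 2 it rises from 812 to 3116 and from 4609 to 18768 from E to L, while in CySC-like E and L stand at 1628 and 1863 in replicate 1 and 1308 and 1378 in replicate 2.

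The 7-base repeat is rare in the assembly. Perfect runs of at least 4 units of AAGAGAG or AACAGAG on either strand were found in 4 of 13745 bins, or 0.0291%, and 868 of their 1120 bp lie in the last bin of 2L. The 350 bp of AACAGAG runs were found in this bin and in no other. Such runs of AAGAG, a separate repeat with a shorter unit, were found in 0 bins of the region. Elsewhere 8 bins held at least 100 bp of AAGAG runs, and 7 of them were called between the cell types. Over all 13745 bins 14 were called, so such calls were not particular to the 7-base repeat. The other bins with the 7-base runs are 1 on the X arm, with 28 bp, and 2 neighbours on Y. The Y bins from 120001 and 130001 held 63 and 161 bp. They had -2.05 and -2.05, and -1.91 and -1.82, in GSC-like, and -0.18 and -0.076, and -0.30 and -0.027, in CySC-like. Their differences of -1.92 and -1.70 had limma adjusted p of 9.8e-06 and 0.026, close in size to that of the end of 2L. These calls, and those of the AAGAG bins, come from the same fit as the call at the end of 2L. Whether they hold under the settings in which that call was lost was not tested. The X bin had -0.52 and 1.80 in the germline tumours against 0.62 and -0.048 in the somatic tumours. The match describes the reference letters, and reads from unassembled copies of such repeats may be counted in these windows.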

How the data were processed

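Groups came from the titles, which give driver, fraction and replicate. The authors deposited 1 table with a column per library, in RPKM over 3 kb windows stepping by 1 kb. The unit, not named per the file headers, was inferred: in 3 kb windows 100% of values were whole multiples of 1 step within 0.05 read, which gives each library's total. All sample columns were used. The submitters' processing notes name Bowtie2 2.4.5 and dm6. How duplicates and multiply matching reads were handled is not given in the sources used here, and the level of repeats depends on it. Chromosome lengths in the table equalled those of the Release 6 reference in use, and coordinates are 1-based.

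Windows were averaged into 10 kb bins by their centre, and 1 window centred in the region but starting before it was left out. Libraries were scaled to an equal mean bin, a bin was dropped if 4 or more of its 8 values in E and L were 0, and log2(value + 0.1) was taken, which understates changes of low bins. log2(E/L) per replicate was fitted with limma 3.58.1 (R 4.3.3; lmFit, eBayes with a trend on mean log2 signal), 2 replicates against 2, with Benjamini-Hochberg adjustment over all bins. The fit was tested on simulated data. Region means were compared by two-sided exact permutation tests with numpy 2.4.6 and pandas 2.3.3. Pericentromeres were 2R up to 6 Mb, 3L from 23 Mb, 3R up to 5 Mb and X from 22 Mb. The level of a bin is its mean over the 8 E and L libraries relative to the 2L arm.

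E and L were paired because the design text states that each replicate was sorted into its fractions; their deviations correlated at 0.52 in GSC-like and -0.06 in CySC-like. Between cell types, deviations of same-numbered replicates correlated at -0.25, and the numbers were not used. The rule for named genes took 13 genes known from 2L heterochromatin (7 lie in the region), the 5 earliest and 5 latest genes per cell type, the 5 with the largest separated difference and the 5 longest; other genes are named where they share a bin or neighbour these. Members, lists and tests were chosen with earlier results of these data known. Alternatives covered scaling, pseudocount, filter, bin size, GC content (lowess, statsmodels 0.14.6), variance trend, voom on recovered reads, replicate blocks and left-out replicates. Added after seeing the data were a crossed block, the region without its last bin, the counts of separated bins by setting, values relative to the 2L arm, levels of repeats without GSC-like replicate 2, the split by repeat content and fraction shares without each GSC-like replicate. Plots used matplotlib 3.10.9.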

Additional observations from a re-analysis of the deposited data

Results flagged for a closer look

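The last bin of 2L, GSC-like minus CySC-like, differed by -1.92, the one called difference between cell types in the region, in the direction opposite to most of its bins. For 3 gene bins every GSC-like replicate had log2(E/L) above 0 and every CySC-like replicate below 0. The differences were 1.39 for CG42597, 1.02 for lt and 1.10 for cta. Without 1 replicate they ranged from 0.55 to 2.22, from 0.32 to 1.72 and from 0.68 to 1.52. For these 3 the opposite signs themselves were not tested, and the position of 0 depends on the scaling of E against L. No group held enough replicates for a test of outlying samples.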

How the results depend on the processing

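The region mean, and the region minus the 2L arm or minus the other pericentromeres, kept GSC-like above CySC-like under all alternatives run, with differences of 0.38 to 1.02, 0.37 to 0.73 and 0.40 to 0.76. Without 1 replicate the ranges were 0.51 to 1.02, 0.37 to 0.73 and 0.40 to 0.76. The proximal minus distal difference became 0.11 with medians over bins and was -0.20 to -0.13 without 1 replicate. The numbers do not pair the cell types; as a replicate block they left the difference of the region mean at 0.76 (exact sign-flip p = 0.5, the lowest possible) and the calls between cell types at 0, against 1 with crossed numbers. Calls between cell types were also 0 with median scaling, with arm scaling and without the variance trend. Over bins with a level of 0.5 to 2 they were 0 as well, but that filter leaves out the last bin, whose level is 599. Their count also changed with single replicates left out. Calls within GSC-like, 26 in all, were 47 of 303 bins at 5 kb, 3 of 31 at 50 kb, 7 with voom on recovered reads, 0 with no replicate block of E and L, and 1 to 44 without 1 replicate. Within CySC-like the 38 calls became 21 with values as deposited and after GC correction, 7 at 50 kb, 60 with voom, 0 with no replicate block, and 0 to 61 without 1 replicate; both cell types share 1 spread estimate. Germline replicates lay above in 48 and 54 bins with median and arm scaling, which moved the median difference of all bins from 0.24 to -0.13 and -0.067. The share of GSC-like bins highest in L was 32.2% and 30.3% under these, 12.9% at 50 kb, and 13.8% to 16.4% without 1 replicate. The last bin of 2L lost its call with median scaling (-2.31), arm scaling (-2.24), no variance trend (-1.92) and the replicate block (-1.92), and kept it at -2.03 to -1.82 without 1 replicate. Of 154 values for 22 gene bins, 7 changed sign: CG31601 -0.15 without CySC-like replicate 1 (range without 1 replicate up to 1.54), Nubpl 0.23 without GSC-like replicate 1 and 0.034 without CySC-like replicate 2 (down to -0.41), CG17493 -0.026 with median scaling, and, without GSC-like replicate 2, CG3651 -0.59 (up to 1.48), CycK and CG42748 -0.92 (up to 1.86), and RpL5 -0.38 (up to 1.37). Causes of these changes were not tested. Depth limits GSC-like replicate 2 most, and 2 replicates per cell type limit every test.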
